A study of Mus musculus with 3 samples.

Results

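The choroid plexus epithelium (CPE) is the cell layer that secretes cerebrospinal fluid into the brain ventricles. The macrophage genes *Cd68*, *Csf1r*, *Aif1*, *Ptprc*, *Cd163*, *Mrc1*, *Emr1*, *Tyrobp*, *Fcer1g* and *Lyzs* were followed in laser-dissected CPE of 3 mice. They were chosen by name as genes of epiplexus cells and tissue macrophages. All 10 were found among the 27845 gene names of the array, with 19 of its 41174 probes. The CPE came from the lateral ventricles of healthy, untreated adult C57BL/6 mice, and each mouse gave 1 array. On each array, Cy5-labelled CPE RNA was hybridised together with Cy3-labelled RNA of the retinal pigment epithelium and choroid of the eye (RPE/choroid) of wild type C57BL/6 mice. That reference RNA was the same on all 3 arrays and no dyes were swapped, so a ratio holds any dye effect and leaves out the spread between animals of the reference tissue. Both tissues hold macrophages, and the reference is therefore another macrophage-containing tissue and not a macrophage-free control.

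Macrophages are phagocytes that settle in nearly every tissue. In the choroid plexus they lie in the stroma between epithelium and capillaries, and as epiplexus (Kolmer) cells on the ventricular side of the epithelium, so cutting out the epithelium can take epiplexus cells along. They live on signals through the receptor Csf1r. Their surface receptors for antibody and for lipids signal through the small adaptors Tyrobp (DAP12) and Fcer1g, which carry ITAM motifs and recruit the kinase Syk, and the material they take up is broken down in lysosomes. None of the 10 genes marks epiplexus cells alone, and RNA of a dissected layer cannot place a transcript in the stroma or on the epithelial surface. In such bulk RNA, fewer macrophages and less RNA per macrophage cannot be told apart.

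The 10 genes were read against the tissue labels first. Of 11 measured CPE marker genes, 10 were higher in CPE than in the reference, with a median log2 ratio of 3.81, and *Otx2* was the exception (0.14). Of 10 genes of RPE and melanocytes, 9 were lower in CPE, with a median of −5.41. Probes well above background made up 46.0% to 85.6% of all probes in the CPE channel and 68.6% to 84.2% in the reference channel, both highest on the array of mouse 3. The macrophage genes shared that difference in part. All 10 were well above background in CPE of mouse 3 and 9 were in each of the other mice, with the same counts in the reference channel. By probe, 13 of the 19 were well above background in CPE on all arrays, against 44.9% of all probes, and 15 were in the reference, against 61.5%.

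Macrophage transcripts were readily measured in the dissected epithelium. In CPE, 9 of the 10 genes were well above background on all 3 arrays, against 48.3% of all genes, each gene being represented by its brightest probe. By the study's expression classes, which rank the log2 signal of CPE among all probes, 2 genes were high (above the 90th percentile), 7 were moderate (above the 50th) and *Cd163* was low. Over all genes, 12.7% were high and 52.1% were high or moderate. Only 4 of the 10 were high or moderate when the ranking was limited to probes well above background in CPE, since that limit leaves only the brighter probes to rank against.

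The high genes were *Lyzs* and *Csf1r*. *Lyzs*, the lysozyme of macrophages (*Lyz2* in current naming), lay at percentile 97.8, with log2 levels of 12.95, 12.84 and 12.88 in CPE of mice 1, 2 and 3. *Csf1r* lay at percentile 90.5, with levels of 11.02, 10.71 and 10.89, so it sat at the edge of its class. The adaptors *Tyrobp* and *Fcer1g* were both at percentile 87.1, in the moderate class. *Emr1* (*Adgre1*, the F4/80 antigen) followed at 76.1, *Cd68* at 73.6, *Aif1* (the actin-binding protein Iba1) at 71.1, *Mrc1* (the mannose receptor CD206) at 64.7 and *Ptprc* (the leukocyte phosphatase CD45) at 55.8. The percentile of *Ptprc* was 59.2, 66.9 and 19.8 in the 3 mice, so its class rested on mice 1 and 2. *Cd163*, the scavenger receptor for haemoglobin and haptoglobin, lay at 14.4. These percentiles rank probes and do not order the genes by transcript abundance.

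**Figure D1:**
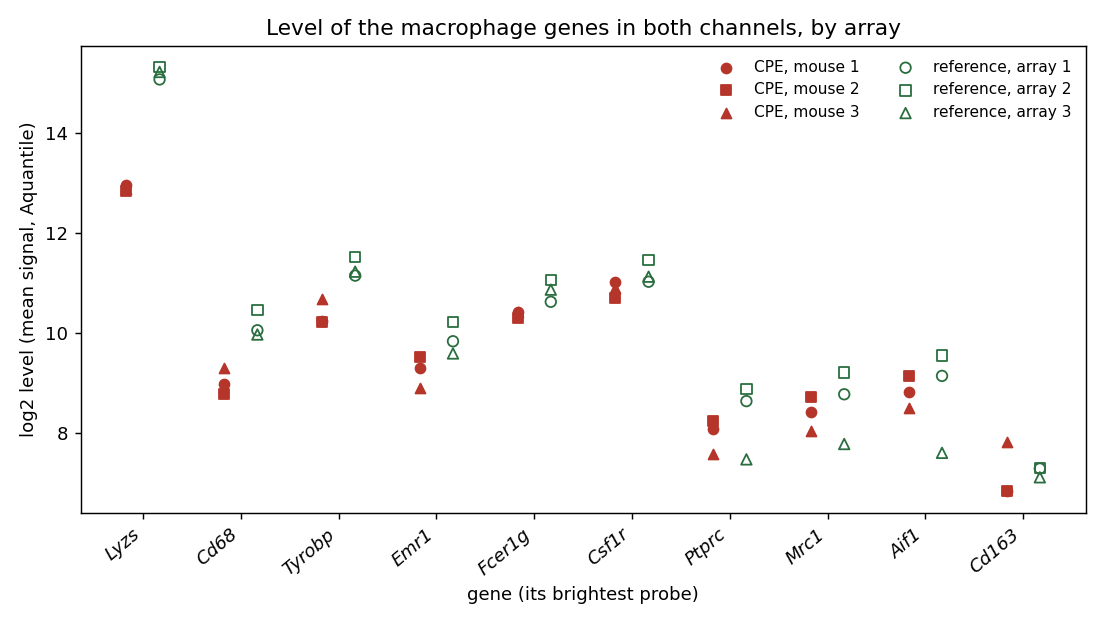
Log2 level of each macrophage gene in the CPE channel (filled) and in the RPE/choroid reference channel (open), by array, from its brightest probe. Levels are mean signals after Aquantile normalization, with no background correction and no loess. Gaps between the channels are therefore not the tested ratios. For *Lyzs* the CPE levels of 12.84 to 12.95 lie more than 2 log2 units below the reference levels of 15.06 to 15.31, while for *Aif1* and *Cd163* both channels overlap.

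The comparison with the reference asks which of these transcripts are scarcer or more plentiful in dissected CPE than in RPE/choroid. Of the 9 genes that could be tested, 6 were lower in CPE (*Lyzs*, *Cd68*, *Tyrobp*, *Emr1*, *Fcer1g* and *Csf1r*) and 0 were higher. A gene counted as lower when limma gave an adjusted p under 0.05 and the mean was at least 2-fold lower. Over all genes tested, 11.2% were lower and 8.12% higher by the same rule. The median log2 ratio of the 9 genes was −1.29, beside −0.04 over all genes. *Ptprc*, *Mrc1* and *Aif1* did not pass. At an unadjusted p under 0.05 all 9 were lower and 0 higher, against 27.8% and 23.1% of all genes tested. The ratio of CPE to reference was below 0 in all 3 mice for the 9 tested genes and for *Cd163*, and for 37.6% of all genes tested. At an adjusted p under 0.05 and any fold, 8 of the 9 were lower, against 23.7% of all genes.

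These ratios are on the scale left by loess, a correction that follows the signal of each array. Under plain median centring, 3 genes (*Lyzs*, *Cd68* and *Tyrobp*) were lower, the median of the 9 was −0.67 and that of all probes moved from −0.04 to 0.09. The split of all calls turned with it, from 1833 probes higher and 2629 lower to 3744 higher and 1842 lower. *Emr1*, *Fcer1g* and *Csf1r* were still below 0 there, at −0.90, −0.67 and −0.51, with adjusted p of 0.0909, 0.179 and 0.298.

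**Figure D2:**
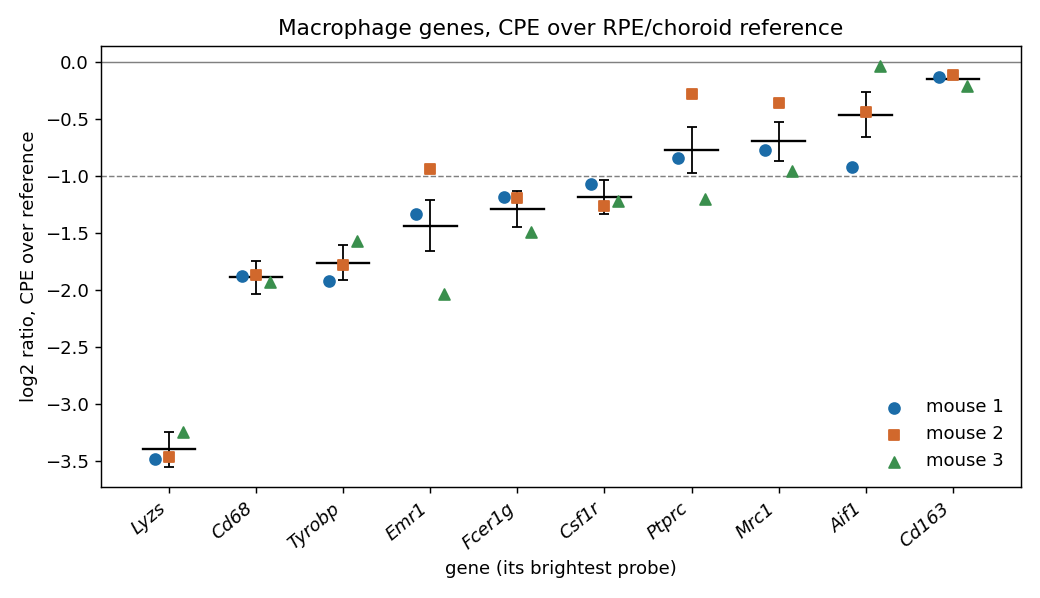
Log2 ratio of CPE over RPE/choroid reference for the brightest probe of each macrophage gene. Symbols are the 3 mice, horizontal bars the mean, error bars the standard error from limma (none for *Cd163*, which was not tested), and the dashed line a 2-fold lower level. From *Lyzs* (−3.40) to *Csf1r* (−1.18) the mean lies below the dashed line, and from *Ptprc* (−0.78) to *Cd163* (−0.15) above it.

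Of the lysosomal and secretory proteins, *Lyzs* differed most among the 10 genes. Its log2 ratio was −3.48, −3.47 and −3.24 in mice 1, 2 and 3, a mean of −3.40 ± 0.15 (SE, n = 3), or 10.5-fold lower in CPE (limma, adjusted p = 1.02e-05). The CPE levels given above lay well below the reference levels of 15.06, 15.31 and 15.21. No spot of *Lyzs* or of another member was saturated. A second *Lyzs* probe gave −2.71, −3.01 and −2.66 (6.93-fold lower, adjusted p = 2.24e-05). *Lyz1*, a close paralogue, may share signal with both probes, so the value stands for lysozyme transcripts of either gene. *Lyzs* was thus lowest against the reference and still among the brightest probes of CPE.

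*Cd68* encodes a glycoprotein of the late endosome and lysosome of phagocytes. Its ratio was −1.87, −1.86 and −1.93 (mean −1.89 ± 0.15 (SE, n = 3), 3.71-fold lower, limma adjusted p = 9.04e-05). The mice were nearly alike, with a standard deviation of 0.04. The SE is larger because limma moderates the spread of each probe toward that of all tested probes. The levels were 8.98, 8.79 and 9.30 in CPE and 10.05, 10.46 and 9.97 in the reference, without overlap. For 6 of the 10 genes, the same that passed the test, every CPE level was below every reference level, a separation seen in 3.65% of all genes. The opposite separation was seen for 0 of the 10 and for 20.6% of all genes. Levels carry no loess correction, so the channels were not centred on each other as they were for the ratios.

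Both ITAM adaptors were lower. *Tyrobp* gave −1.93, −1.78 and −1.57 (mean −1.76 ± 0.16 (SE, n = 3), 3.39-fold lower, limma adjusted p = 0.000159). Its levels of 10.25, 10.21 and 10.67 in CPE lay below those of 11.14, 11.51 and 11.22 in the reference. *Fcer1g* gave −1.19, −1.20 and −1.50 (mean −1.29 ± 0.16 (SE, n = 3), 2.45-fold lower, limma adjusted p = 0.000679). Its other probe, which overlaps the first on the genome, gave −1.11, −1.01 and −1.41 (adjusted p = 0.00117). The levels of the brighter *Fcer1g* probe, 10.42, 10.29 and 10.41 in CPE against 10.62, 11.06 and 10.86, came close without overlapping.

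Of the receptors, *Emr1* and *Csf1r* passed the threshold. *Emr1* gave −1.33, −0.94 and −2.04 (mean −1.44 ± 0.22 (SE, n = 3), 2.71-fold lower, limma adjusted p = 0.00208). Its spread between mice, a standard deviation of 0.56, was the widest of the 10 genes, and mouse 3 was lowest. *Csf1r* gave −1.07, −1.26 and −1.22 (mean −1.18 ± 0.15 (SE, n = 3), 2.27-fold lower, limma adjusted p = 0.000854). Its 3 mice were alike and all just past 2-fold, and its levels in both channels were nearly in contact, the lowest in the reference being 11.02. On that scale without loess, its mean levels of 10.87 in CPE and 11.20 in the reference differed less than the ratio. Tested directly against a 2-fold change, neither *Csf1r*, *Emr1* nor *Fcer1g* passed, whereas *Lyzs*, *Cd68* and *Tyrobp* did.

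The other receptors were not past the threshold. *Ptprc* gave −0.85, −0.28 and −1.20 (mean −0.78 ± 0.20 (SE, n = 3), limma adjusted p = 0.0191), with mouse 2 nearest to 0. Without mouse 2 it passed, with a mean of −1.02 and an adjusted p of 0.00312. *Mrc1* gave −0.77, −0.36 and −0.96 (mean −0.70 ± 0.17 (SE, n = 3), limma adjusted p = 0.0158). Both missed the limit of size and not that of p. *Aif1* gave −0.92, −0.44 and −0.04 (mean −0.46 ± 0.20 (SE, n = 3), limma adjusted p = 0.102), and its second probe gave −0.78, −0.28 and −0.56 (adjusted p = 0.0357). The reference level of *Aif1*, 9.14, 9.54 and 7.60, fell below its CPE level of 8.51 on the array of mouse 3, so its channels overlapped.

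*Cd163* was not testable. Its probe was well above background in each channel on the array of mouse 3 only, with ratios of −0.13, −0.11 and −0.21, and its mean signal in CPE was 81, 75 and 537. That array had the larger share of detected probes in both channels, and whether the *Cd163* signal of mouse 3 followed from this was not tested. A difference of *Cd163* was therefore not detectable here.

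For 6 of the 10 genes the array held several probes, at different places along the gene. Positions are those of the scanner files, on mm8. The 3 *Csf1r* probes lie on chromosome 18. From the 5′ to the 3′ end, they start at 61235137, 61255113 and 61256099 on the plus strand, and gave means of 0.20 (limma adjusted p = 0.332), −0.62 (0.0209) and −1.18. The 5′ probe was well above background in CPE on 1 array only. *Ptprc* lies on the minus strand of chromosome 1 with 4 probes. Its 3′-most probe, at 139879923 to 139879982, gave the −0.78 above, and the other 3 lay between −0.15 and 0.01. None of those 3 was well above background in CPE on all arrays. The probe of them starting at 139882525 was tested and gave −0.02 (limma adjusted p = 0.945). The 5′ probe of *Emr1*, which lies 72622 bases from the 3′ one on chromosome 17, was well above background on 1 array per channel and gave −0.32, −0.22 and 0.63. For *Csf1r*, *Ptprc* and *Emr1* the brightest probe was also the 3′-most and had the ratio farthest from 0.

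The probes of the other genes differed less. The *Lyzs* probes (chromosome 10, minus strand, 116686229 to 116686288 and 116681504 to 116681563) are 4725 bases apart and gave −2.79 and −3.40. The *Fcer1g* probes (chromosome 1) start 52 bases apart and gave −1.18 and −1.29, and the *Aif1* probes (chromosome 17) start 538 bases apart and gave −0.54 and −0.46. Of all 19 probes, 15 were tested, 8 were lower and 0 higher, where 10.2% of all probes tested were lower and 7.09% higher. With the tested probes of each gene averaged, *Csf1r* had a ratio of −0.53 and missed the limit of size. *Ptprc* had −0.40 there (limma adjusted p = 0.0662) and missed the limits of size and of p. The RNA of both channels was amplified before labelling, and the part of distance from the 3′ end or of probe brightness in these differences was not tested.

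**Figure D3:**
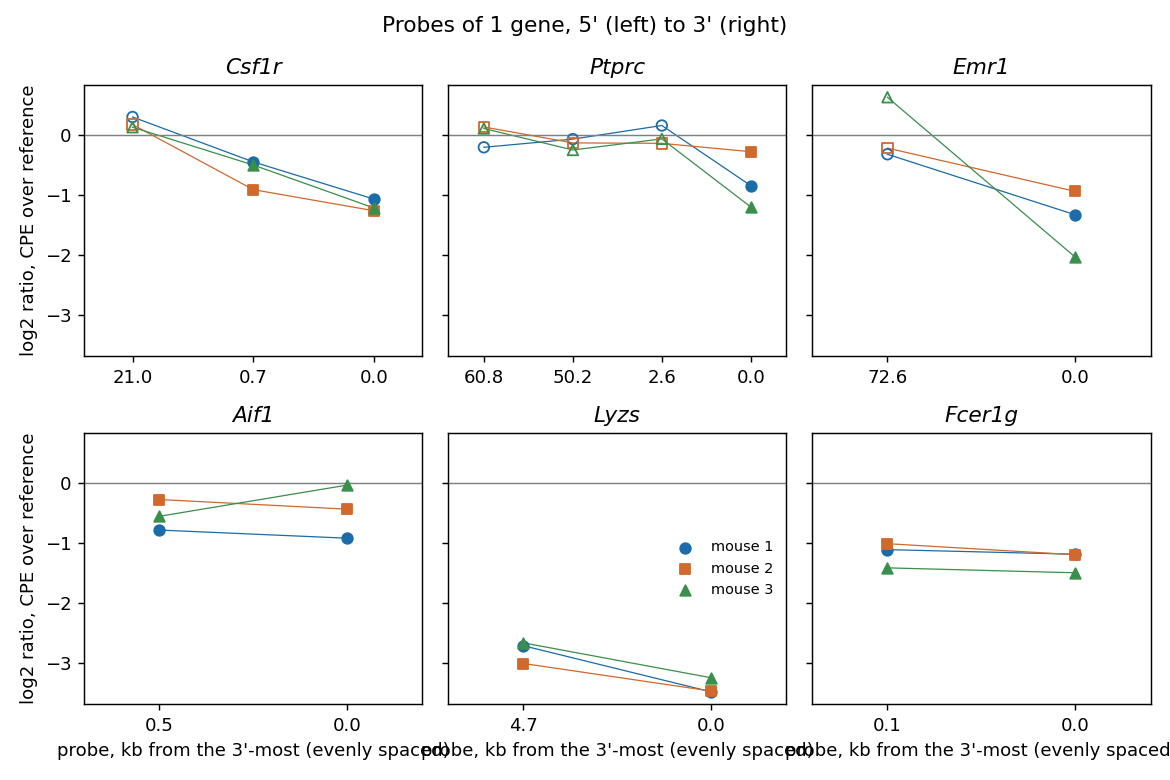
Log2 ratio of CPE over reference for each probe of the 6 genes with several probes, ordered from 5′ to 3′ and evenly spaced, with the distance on the genome to the 3′-most probe in kilobases. Symbols are the 3 mice, and open symbols are probes not well above background in CPE on all arrays. *Csf1r* runs from 0.20 at the 5′ probe to −1.18 at the 3′ one, while both *Lyzs* probes stay below −2.6 in every mouse.

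By its median, the spread between mice of the 9 tested genes was not wider than that of other genes. The median standard deviation of their log2 ratio was 0.18, beside 0.27 over the 13101 genes detected in CPE and reference alike on each array. *Emr1* (0.56), *Ptprc* (0.46), *Aif1* (0.44) and *Mrc1* (0.30) were above the median of all genes, and the other tested members below it. The summed level of the 10 genes, on the linear scale and without loess, was between 14015 and 14880 in CPE. In the reference it was between 43635 and 52936, so the sum differed more between the tissues than among the mice. Most of that sum came from *Lyzs*, the brightest of the probes.

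Sequence before the start site is shown for 5 of the genes, to set those that passed the threshold (*Lyz2*, *Cd68*, *Fcer1g*) beside those that did not (*Mrc1*, *Aif1*). The 150 bases before the start are from RefSeq promoters on GRCm38.p6, a later build than that of the probes, and 7 of the 10 genes had an entry that is used here. Motifs known from myeloid promoters were searched on both strands over the 250 bases before the start, after the sequences had been seen. They were GAGGAA, one of the sequences bound by PU.1, the lineage factor of macrophages, and TGANTCA, bound by AP-1. The letters of neither contain the other. Matches are in capitals.

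Lyz2, chr10:117282273-117282422, minus strand: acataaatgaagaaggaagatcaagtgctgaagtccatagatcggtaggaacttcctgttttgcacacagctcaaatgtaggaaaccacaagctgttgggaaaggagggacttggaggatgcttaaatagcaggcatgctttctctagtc

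Cd68, chr11:69666171-69666320, minus strand: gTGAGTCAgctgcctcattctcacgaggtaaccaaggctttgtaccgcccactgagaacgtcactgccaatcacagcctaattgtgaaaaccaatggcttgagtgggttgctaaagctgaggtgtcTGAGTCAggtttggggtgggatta

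Fcer1g, chr1:171234350-171234499, minus strand: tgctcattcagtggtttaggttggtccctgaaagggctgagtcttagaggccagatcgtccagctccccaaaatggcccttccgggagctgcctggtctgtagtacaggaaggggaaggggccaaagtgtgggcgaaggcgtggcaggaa

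Mrc1, chr2:14229264-14229413, plus strand: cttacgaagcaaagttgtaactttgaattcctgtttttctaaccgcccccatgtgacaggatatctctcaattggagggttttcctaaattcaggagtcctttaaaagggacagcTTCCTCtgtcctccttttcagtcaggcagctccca

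Aif1, chr17:35176053-35176202, minus strand: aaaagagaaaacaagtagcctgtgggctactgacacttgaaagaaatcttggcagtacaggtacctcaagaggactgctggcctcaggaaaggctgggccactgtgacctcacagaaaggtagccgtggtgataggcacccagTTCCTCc

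GAGGAA was found in the 250 bases of 4 of the 7 genes (*Ptprc*, *Mrc1*, *Cd68* and *Aif1*). By promoter it was in 4 of 8, as *Ptprc* had a further entry without it, beside 23.25% of all 32851 promoters of that length. The *Cd68* match does not lie within the 150 bases shown, and *Ptprc* is not shown, so the capitals above give no contrast between the groups. The shown stretch of *Cd68* holds 2 TGANTCA matches, whose first bases lie 24 and 149 bases before the start, and none of the other 6 genes had one, beside 6.749% of all promoters. A match is only these letters, so a gene without one may be bound through other letters.

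Other genes of the same pathways were read from lists. Of the 11 ligands and lineage factors measured around Csf1r, 0 passed the threshold in either direction by limma, with a median of 0.16. At an unadjusted p under 0.05, 4 were above and 4 below 0, on smaller fold changes or weaker adjusted p. The 2 brightest were the transcription factor *Maf*, at 1.09, 0.27 and 0.90, and *Csf2ra*, the receptor chain for GM-CSF, at −0.98, −0.72 and −0.70. The ligands of Csf1r, named here after their values were seen, gave 0.11, −0.02 and −1.0 for *Csf1* (mean −0.31, adjusted p = 0.34, and 0.04 without mouse 3) and 0.60, 0.79 and 0.23 for *Il34* (mean 0.54, adjusted p = 0.039). *Csf1r* itself was lower while neither ligand passed the test, and the difference between receptor and ligand was not tested. *Maf* became higher under median centring (1.39), and with the scanner's ratio 1 gene of the list was lower.

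Of the receptors and kinases listed around the ITAM adaptors, not all of them partners of Tyrobp or Fcer1g, 14 of 19 could be tested. Of these, 5 were lower and 0 higher, with a median of −0.77. *Clec7a*, the beta-glucan receptor dectin-1, gave −3.28, −2.99 and −2.70 (mean −2.99, limma adjusted p = 2.39e-05). *Trem2*, a lipid receptor that signals through Tyrobp, gave −2.73, −2.31 and −2.33 (mean −2.46, limma adjusted p = 4.49e-05). The inhibitory receptor *Pirb* was lower at −1.76, and the antibody receptors *Fcgr3* and *Fcgr2b* at −1.39 and −1.07. All 14 means were below 0, and 3 of the 5 (*Clec7a*, *Trem2* and *Pirb*) stayed lower under median centring. Without mouse 2, 7 of the 14 were lower. Both adaptors and 5 genes of this list were thus lower in the same dissected tissue, with the ratios farthest from 0 in *Clec7a* and *Trem2*. The other 9 tested genes did not pass, among them the receptors *Clec5a* (−0.01) and *Sirpb1* (−0.15).

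Genes of macrophages at the brain's borders and around vessels gave 4 lower and 0 higher of 11 tested, with a median of −0.20. They were *Ms4a7* (−2.98, −2.71 and −2.97, limma adjusted p = 1.83e-05), a membrane gene typical of border macrophages, the chemokine *Pf4* (−1.51), the lectin *Clec10a* (−1.32) and the coagulation subunit *F13a1* (−1.07, and −0.98 without mouse 1, where it no longer passed). Under median centring only *Ms4a7* and *Clec10a* of these stayed lower. The median of the list was −0.41 there, −0.07 when mouse 1 was left out and −0.72 with the scanner's ratio. With the scanner's ratio the lectin gene *Mgl2* was higher (1.27, adjusted p = 0.0306). Of 8 microglial genes, 0 passed in either direction by limma (at an unadjusted p under 0.05, 2 were above and 1 below 0). Their median was 0.08, and −0.05 without mouse 2. *Olfml3*, a secreted glycoprotein gene among the brighter ones, gave 0.19, −0.12 and −0.02 (mean 0.02). The difference between the lists was not tested.

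Of 15 tested genes of phagocytes and leukocytes in general, 5 were lower and 0 higher, with a median of −0.69 and all 15 means below 0. *Mpeg1*, which encodes the pore-forming perforin-2 of macrophages, gave −1.96, −2.32 and −1.96 (mean −2.08, limma adjusted p = 8.48e-05). The tetraspanin *Cd53* and the phagosomal metal transporter *Slc11a1* (Nramp1) were both at −1.99, followed by *Cd48* (−1.18) and *Lcp1* (−1.12). *Mpeg1*, *Cd53* and *Slc11a1* stayed lower under median centring.

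The C1q chains form the opening component of complement, which macrophages make, and their median was −0.77. Of them, *C1qa* was lower at −0.86, −1.37 and −1.0 (mean −1.08, limma adjusted p = 0.00218), a call that was lost without mouse 2 (−0.93) and under median centring (−0.49). *C1qb* (−0.56) and *C1qc* (−0.77) did not pass. *C1qc* was in the high class of CPE, at percentile 93.9.

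Of 6 tested genes of MHC class II, 1 was higher and 0 lower. *Cd74*, the invariant chain, was higher in CPE at 2.139, 1.70 and 1.91 (mean 1.91, limma adjusted p = 0.000126), the only gene of the macrophage, ITAM, border, microglial, phagocyte, C1q and MHC lists above 0 past the threshold on the loess scale. *H2-Aa*, a class II chain that pairs with it, gave −0.90, −1.57 and −0.52 (named after its value was seen). It missed the limit of size with all mice and was lower without mouse 1 (−1.04) or mouse 3 (−1.23). It was the only tested gene of the list below 0. *H2-Ab1* (0.32), *H2-Eb1* (0.04), *H2-DMa* (0.44) and *Ciita* (0.18), the other tested genes of the list, did not pass.

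Of 11 lysosome genes, 4 were lower and 1 was higher, with a median of −0.23. *Gpnmb*, a glycoprotein of melanosomes and of phagocyte lysosomes, gave −4.90, −4.91 and −4.22 (mean −4.67, limma adjusted p = 7.59e-06). *Ctss*, the cathepsin of antigen-presenting cells, gave −2.99, −3.14 and −2.90 (mean −3.01, limma adjusted p = 1.54e-05). *Lgals3* was lower at −2.13 and *Grn* at −1.13, while *Psap*, the saposin precursor used by most cells, was higher at 1.49, 0.92 and 1.82. The median of this list changed sign, to 0.66 with 5 higher and 3 lower, under median centring, where *Gpnmb*, *Ctss* and *Lgals3* stayed lower.

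**Figure D4:**
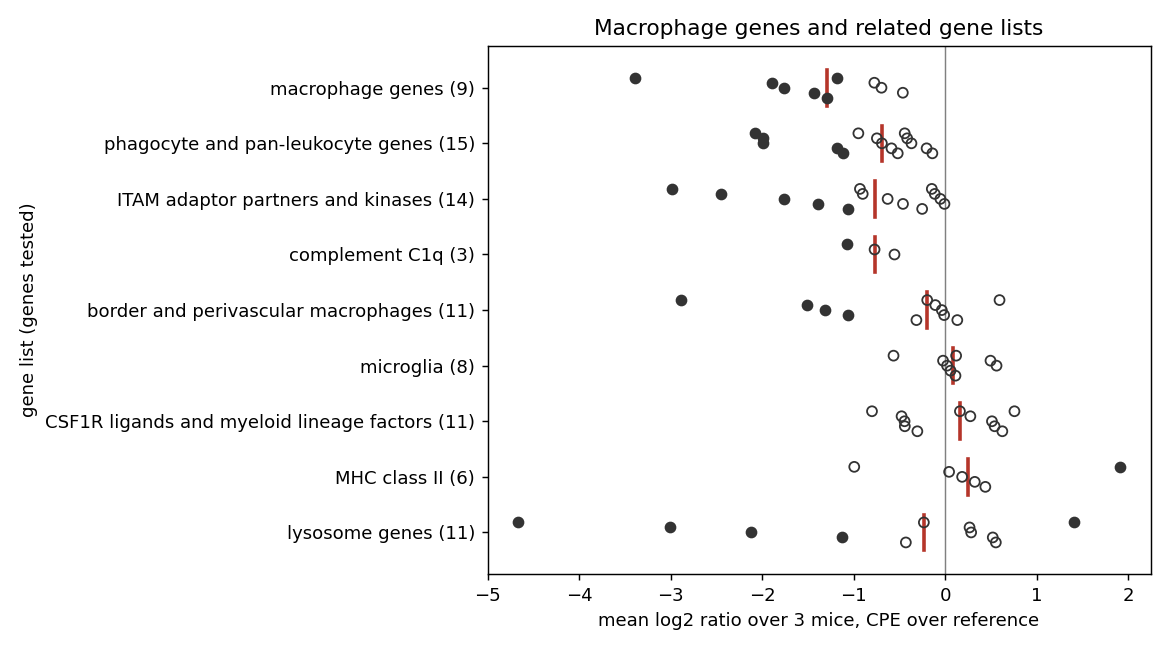
Mean log2 ratio of CPE over reference, 1 point per tested gene (its brightest probe, 3 mice), for the macrophage genes and related lists, with the number tested in parentheses. Filled points passed the threshold and red bars are list medians, from −1.29 for the macrophage genes to 0.25 for MHC class II. No gene of the first 7 lists lies above 0 and past the threshold.

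Genes of several other cell types were lower in the same comparison, while those of the endothelium and of oligodendrocytes were not. Of 5 tested oligodendrocyte genes, 2 were higher and 0 lower, with a median log2 ratio of 0.71. Astrocyte genes were mixed, with 1 higher and 2 lower of 6. Of 8 neuron genes, 4 were lower and 0 higher, with a median of −1.78. Of 6 genes of pericytes and smooth muscle, 2 were lower and 0 higher, with a median of −0.79. Under median centring, 4 of the neuron genes were lower, while of the pericyte and smooth muscle genes 0 were lower and 1 was higher. Of 6 genes of stromal fibroblasts, 5 were lower in CPE, with a summed level of 25151 to 33462 in CPE against 84877 to 97176 in the reference. The red blood cell genes, measured by 3 probes, were all lower (28780 to 49709 against 92782 to 104481). Of 7 endothelial genes, 1 was higher and 0 lower (12751 to 17929 against 6949 to 8840). Under median centring, 2 of the stromal genes were lower and 1 higher, 1 of the 3 red blood cell probes was lower, and 3 of the endothelial genes were higher. No endothelial gene passed without mouse 1, while 3 were higher without mouse 3 and 2 without mouse 2. The 9 photoreceptor genes were all lower (6741 to 10711 against 120248 to 139378). The sum of the RPE and melanocyte genes was 7304 to 12194 in CPE against 173790 to 197868, and of its markers *Tyr* was well above background in CPE on no array. *Gpnmb* is expressed by pigment cells too. All these sums are of levels without loess, and so are not on the scale of the ratios. The part of stroma, blood and pigment cells in the macrophage ratios was not tested.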

How the data were processed

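Per the labels, total RNA of laser-dissected CPE was amplified, labelled with Cy5 and hybridised with the Cy3-labelled reference on Agilent mouse arrays. The submitters' processing notes name Agilent Feature Extraction 9.5.3.1, R 2.14.0 and limma. The authors deposited scanner files with spot intensities of both channels and a table of log2 values, which is not background-corrected. That table ranked the probes like the CPE channel (Spearman's correlation over probes 0.998 to 1.000), so it holds CPE levels. The scanner files also hold a log10 ratio made by the authors' scanner software, used as an alternative.

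Here, limma 3.58.1 in R 4.3.3 was used. Mean and local background intensities were corrected by normexp (offset 50) and loess was fitted within each array. Control spots were left out. The 25841 probes that the scanner called well above background in CPE on every array, or in the reference on every array, were tested by lmFit and eBayes against 0, with Benjamini-Hochberg adjustment over all of them. Levels and expression classes used the mean signal after Aquantile, without background correction, as in the study's methods. No loess was applied to levels, so a gap between the channels in level can differ from the tested ratio. A gene was represented by its probe with the brightest mean over both channels. All probes of the 10 genes are given, and of the other lists up to 5 genes past the threshold by size of ratio, or the 2 brightest where none passed (1 gene that this rule names is not reported here). The members, lists and tests were chosen with earlier results of these data known. Of 202 further genes listed, 200 were on the array, and 56.8% of probes could be matched to a RefSeq accession for current names. The testing step was run on simulated data. The number of arrays, 3, limits the precision, and nothing beyond the labels says how far the mice are independent. Standard errors and p-values from limma measure the spread between these samples, moderated by eBayes toward that of all tested probes. Each array is its own slide, so mouse and slide cannot be told apart. Alternatives were other background corrections, the scanner's ratio, median centring, other filters on dim probes, array weights, a test against 2-fold, each mouse left out, and averaged probes.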

Additional observations from a re-analysis of the deposited data

How the results depend on the processing

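Of the 9 tested macrophage genes, 6 were lower in CPE, and 0 were higher under any alternative run. The count was 3 under median centring and 3 in the test against a 2-fold change (*Lyzs*, *Cd68* and *Tyrobp* in both), and 5 to 7 under the others. Leaving out 1 mouse gave 6 to 7, the additional gene being *Ptprc* without mouse 2. *Ptprc* also passed with the scanner's ratio (−1.21, adjusted p = 0.0494). No ratio of a macrophage gene changed sign; of the ratios recomputed, 100 kept their side of the threshold, 7 lost and 2 gained a call. The number of genes in the high or moderate class was 9, fell to 4 when only probes well above background in CPE were ranked, and was 8 to 9 without 1 mouse. Calls over all probes were 4462, against 6762 with the scanner's ratio and 1414 in the test against 2-fold. The causes of these shifts were not tested. The other lists were recomputed under median centring, the scanner's ratio, no background correction and without each mouse, alternatives chosen after seeing the data. No paired analysis was possible because there is 1 group. Dim probes limit *Cd163*, the 5′ probes of *Csf1r* and *Emr1*, and 3 of the 4 *Ptprc* probes.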

Other observations

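Most genes listed for other immune cells were not well above background in CPE on all arrays. Of the 6 dendritic cell genes, 2 were, and 3 were in the high or moderate class. Of 10 genes of T and NK cells, 3 could be tested and 0 passed in either direction. *Cd3e*, a chain of the T cell receptor complex, was well above background in CPE of all mice and gave 0.87, 0.98 and 0.23. Of 6 B cell genes, 2 could be tested and 0 passed, and none was well above background in CPE of all mice. Of 5 tested genes of dendritic cells, 0 passed, with *Itgax* (CD11c) at −1.39, −0.89 and −0.57 and *Cd83* at −0.44, −0.16 and −0.83. At an unadjusted p under 0.05 in limma, 1 T cell gene was above 0, 1 B cell gene below and 2 dendritic cell genes below. *Cd3e* (adjusted p = 0.0236) and *Itgax* (adjusted p = 0.0069) missed the limit of size. With the scanner's ratio *Cd3e* was higher (1.48, adjusted p = 0.0304) and *Itgax* lower (−1.43, adjusted p = 0.0341), and *Itgax* was also lower without mouse 3 (−1.14). Of 5 tested neutrophil genes, 2 were lower. *S100a9*, a subunit of calprotectin, gave −2.61, −1.92 and −1.58 (limma adjusted p = 0.000355). *Ltf*, lactoferrin, gave −2.33, −1.88 and −1.05 (adjusted p = 0.00127). Of the 7 neutrophil genes on the array, 1 was well above background in CPE of all mice and 0 were in the high or moderate class. *S100a9* and *Ltf* were therefore not both clearly detected in CPE. Of 4 tested mast cell genes, *Cpa3*, a carboxypeptidase of mast cell granules, was lower at −1.43, −0.91 and −0.78 (adjusted p = 0.00335) and was well above background in CPE of 1 mouse only. Without mouse 1, *Cpa3* did not pass (−0.85).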
